A study of Mus musculus with 2 samples.

Results

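The enzymes of glycolysis and of the pentose phosphate pathway, with the enzymes that regulate flux through them, were examined in G1E cells before and after activation of a GATA-1 mutant. The members were 41 genes listed by pathway knowledge, and the list was made with earlier results of these data known. Of these, 37 had at least 1 probe set, the group of short oligonucleotides that reads a transcript, annotated to that gene alone. They were read by 78 probe sets, among 18194 genes read in this way on the array. Gpi1, Eno1, Pfkfb1 and G6pdx had no such probe set, so their expression was not analysed, and they enter only the promoter counts.

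G1E cells are mouse erythroid progenitors without GATA-1, the master transcription factor of red cell maturation. They carried ER-GATA-1(V205G), which is GATA-1 with a defect in binding its cofactor FOG-1, fused to an estrogen receptor domain, so that estradiol activates it. The estradiol sample came from cells treated with 1 µM estradiol for 24 h, and the untreated sample from cells before treatment. Both samples carried the fusion, so the activated mutant, the hormone as such and the 24 h of further culture cannot be told apart as sources of a difference. Each group held 1 array, so no SD between cultures, no test and no p-value could be had.

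Glycolysis splits glucose into pyruvate and yields ATP, and it is the energy source of the mature red cell, which has no mitochondria. Hexokinase and phosphofructokinase commit sugar to the pathway, and most steps have several isozymes that differ by tissue. The pentose phosphate pathway branches off after hexokinase and makes NADPH, which keeps glutathione reduced, and ribose for nucleotides. Pyruvate is either turned into lactate or passed to the mitochondrion by pyruvate dehydrogenase.

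A signal is the linear intensity of a probe set, and the log2 ratio is estradiol over untreated. A gene took the value of its brightest probe set and was called measured when both arrays reached a floor, a signal of 95.2. Of the 37 genes, 32 were measured, 1 (Aldoc) reached the floor on 1 array and 4 (Pgam2, Eno2, Pfkfb3 and Pdk4) were below it on both. The size used to read a ratio was the pooled SD among log2 ratios of probe sets that read the same gene. It was 0.25, so that 2 SD is a log2 ratio of 0.50. In 3 groups of genes by signal, 2 SD was 0.60 for the dimmest, 0.50 for the middle and 0.40 for the brightest. The pooled SD was used throughout. This SD covers probe noise and transcript forms, and it does not cover the spread between cultures. Of 45037 probe sets that were not controls, 50.9% reached the floor with estradiol and 49.2% untreated. The ratio of 3' to 5' signal, a sign of RNA integrity, was 0.781 with estradiol and 0.798 untreated for Gapdh, and 1.16 with estradiol and 1.14 untreated for beta-actin. Among erythroid markers 8 of 9 were measured, with 3 at least 2-fold higher (Alas2, Add2 and Sptb) and none 2-fold lower, while Epor and Tal1 lay below 0. The log2 ratios ran from 0.65 to 1.60 over 5 probe sets of Add2 and from 0.26 to 1.47 over 2 of Sptb. The summed signal of the erythroid markers was 29597 with estradiol and 20331 untreated. Of the mast cell and basophil markers 6 of 9 were measured, with 1 higher and 3 lower at 2-fold and summed signals of 6495 with estradiol and 13608 untreated. This sum joins opposite directions. Tpsab1 was 24.4-fold higher, while Gzmb was 8.60-fold, Cpa3 5.77-fold and Ms4a2 2.65-fold lower. Mcpt2 (227 with estradiol, 158 untreated) and Cma1 (210 with estradiol, 184 untreated) were higher, short of 2-fold. Hdc reached the floor only with estradiol, at 152 against 3.80 untreated. Fcer1a reached it only untreated, at 144 against 47.3 with estradiol, and Mcpt4 lay below it on both arrays. The megakaryocyte markers summed to 1007 with estradiol and 1136 untreated, the neutrophil and monocyte markers to 735 with estradiol and 621 untreated, and the lymphoid markers to 272 with estradiol and 196 untreated. Among these markers Gp9, Vwf, Elane, Cd14, Itgam, Lyz2, Cd3e, Cd79a and Cd4 lay below the floor on both arrays. Itga2b (553 with estradiol, 498 untreated), Pf4 (165 with estradiol, 145 untreated), Plek (229 with estradiol, 464 untreated) and Csf1r (373 with estradiol, 321 untreated) lay above it on both. Mpo, Ltf and Il7r reached it with estradiol, at 137, 114 and 186, and lay below it untreated, at 85.0, 60.0 and 62.8. Their part in the results below was not tested.

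The muscle-type phosphofructokinase gene Pfkm and the hexokinase gene Hk2 were the members that passed 2-fold, and both were higher after estradiol. Pfkm was 3.27-fold higher and Hk2 2.34-fold higher, and none of the 32 measured members was 2-fold lower. Among all 10241 measured genes the share past 2-fold was 2.04% upward and 1.1% downward. The 2 members are 6.25% of those measured, beside 3.14% of all measured genes past 2-fold either way, and with 2 genes this share is not read as a property of the list. Past 2 SD lay 3 members upward, the third being Pfkfb2, and none downward, against 9.47% and 6.84% of all measured genes. The remaining 30 measured members had log2 ratios from -0.31 to 0.63, and 29 of them lay within 1.5-fold. The median log2 ratio was 0.01 over the members and 0.00 over all measured genes, and the median size of the ratio was 0.17 over the members and 0.21 over all measured genes.

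**Figure D1:**
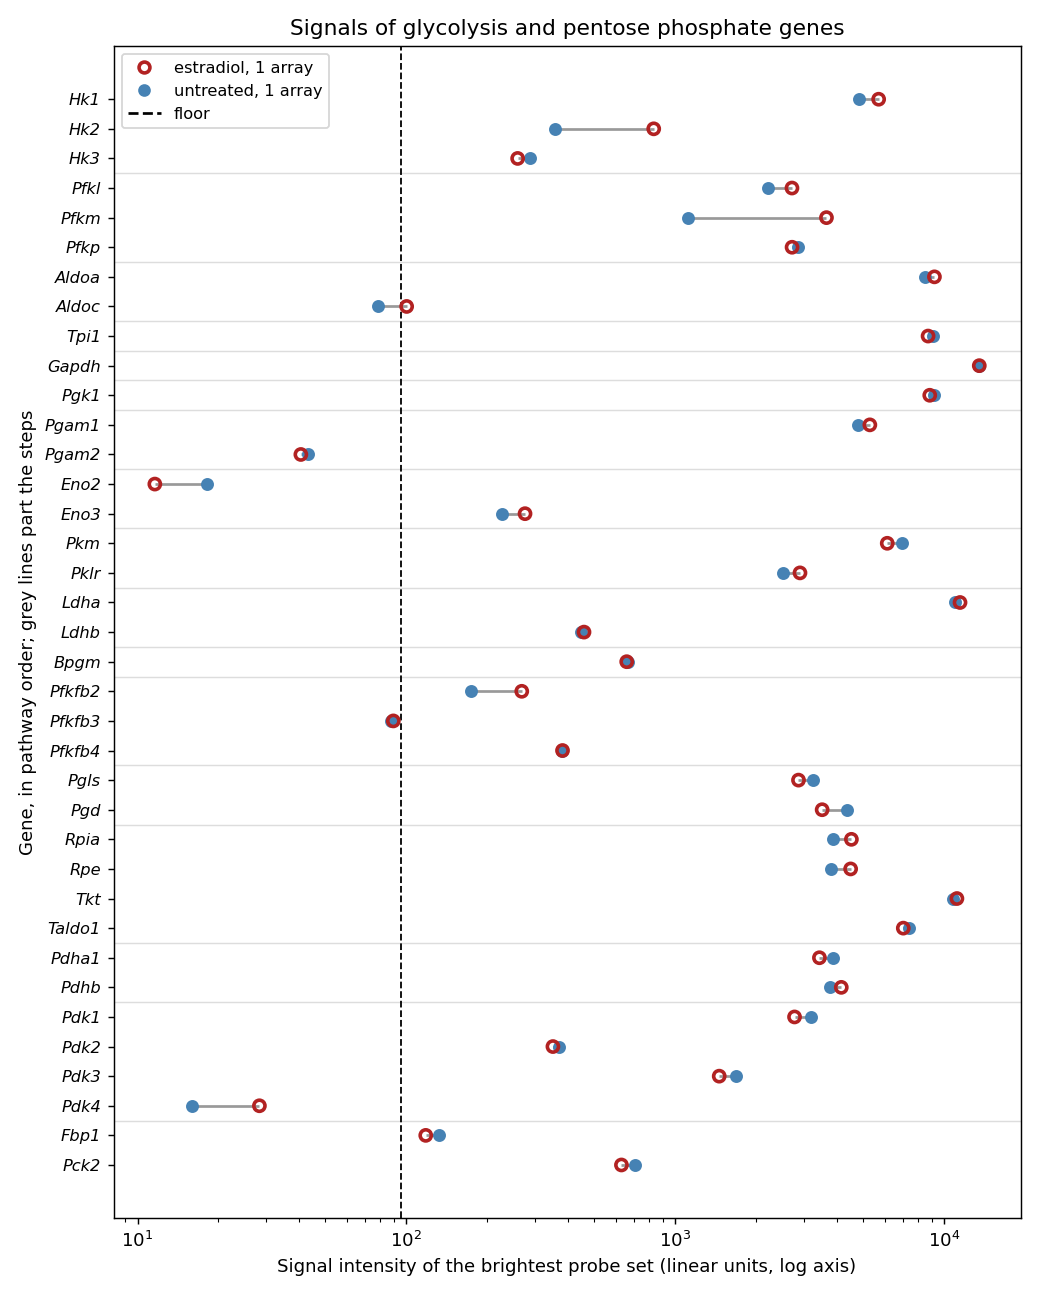
Signal of the brightest probe set (linear units on a log axis) for the 37 genes in pathway order, with the estradiol array as open red circles, the untreated array as blue dots and the floor of 95.2 as a dashed line. Pfkm and Hk2 show the widest gaps among genes above the floor. Signals of different probe sets are not comparable with each other.

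The promoter windows of the genes whose isozymes parted are given here, because the study activates a GATA factor and hypoxia and MYC-type factors are known regulators of glycolytic genes. The windows run from 250 bases before to 50 after the annotated start and come from RefSeq (GRCm38.p6), which holds windows for all 41 members. They are printed 5′ to 3′ along the gene's strand. Capitals mark matches on either strand to the GATA motif (AGATAA or AGATAG, and likewise TGATAA or TGATAG with a different first base), the hypoxia-response core (ACGTG) and the E-box (CACGTG, which holds that core on both strands). Pfkm has 4 annotated windows, of which 3 that do not overlap are shown, beside those of its isozyme genes Pfkl and Pfkp and of Hk2.
Pfkm, chr15:98092339-98092638, + strand: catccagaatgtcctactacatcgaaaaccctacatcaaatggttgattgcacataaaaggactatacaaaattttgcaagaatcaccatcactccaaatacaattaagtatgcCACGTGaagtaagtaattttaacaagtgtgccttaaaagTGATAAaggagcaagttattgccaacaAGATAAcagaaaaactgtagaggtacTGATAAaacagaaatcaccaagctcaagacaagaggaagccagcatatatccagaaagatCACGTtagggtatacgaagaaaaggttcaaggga
Pfkm, chr15:98108221-98108520, + strand: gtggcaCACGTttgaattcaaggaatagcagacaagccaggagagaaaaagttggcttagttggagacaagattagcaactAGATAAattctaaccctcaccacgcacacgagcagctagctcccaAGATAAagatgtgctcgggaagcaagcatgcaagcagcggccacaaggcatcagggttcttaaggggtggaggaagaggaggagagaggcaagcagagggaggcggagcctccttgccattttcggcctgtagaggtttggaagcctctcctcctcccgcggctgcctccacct
Pfkm, chr15:98111810-98112109, + strand: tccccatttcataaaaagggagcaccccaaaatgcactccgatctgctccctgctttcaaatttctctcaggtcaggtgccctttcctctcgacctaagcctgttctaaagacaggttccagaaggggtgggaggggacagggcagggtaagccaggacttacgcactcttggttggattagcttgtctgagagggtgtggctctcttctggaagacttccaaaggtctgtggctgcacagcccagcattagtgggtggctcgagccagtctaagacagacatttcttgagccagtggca
Pfkl, chr10:78009758-78010057, - strand: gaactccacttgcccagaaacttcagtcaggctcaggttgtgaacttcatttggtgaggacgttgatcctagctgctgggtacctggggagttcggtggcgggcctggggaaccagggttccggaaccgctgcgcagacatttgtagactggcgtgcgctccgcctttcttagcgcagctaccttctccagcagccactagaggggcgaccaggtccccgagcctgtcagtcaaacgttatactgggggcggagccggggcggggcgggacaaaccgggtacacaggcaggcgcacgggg
Pfkp, chr13:6648722-6649021, - strand: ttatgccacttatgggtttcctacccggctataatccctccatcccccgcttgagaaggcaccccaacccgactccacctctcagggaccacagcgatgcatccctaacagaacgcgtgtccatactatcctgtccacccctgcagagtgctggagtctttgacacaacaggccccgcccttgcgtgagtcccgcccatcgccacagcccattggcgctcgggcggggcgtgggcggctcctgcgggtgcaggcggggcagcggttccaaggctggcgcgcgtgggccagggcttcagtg
Hk2, chr6:82774405-82774704, - strand: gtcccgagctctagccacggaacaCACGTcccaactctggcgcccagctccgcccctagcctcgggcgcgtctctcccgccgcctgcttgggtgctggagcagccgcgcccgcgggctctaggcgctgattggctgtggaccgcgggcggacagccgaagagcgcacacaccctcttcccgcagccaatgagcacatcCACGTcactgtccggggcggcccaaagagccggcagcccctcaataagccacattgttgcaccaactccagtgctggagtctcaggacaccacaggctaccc

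The first Pfkm window held 3 GATA motifs, 1 E-box and 1 further hypoxia core. The second held 2 GATA motifs and 1 hypoxia core, the third held no match, and the window that is not shown held 1 of the GATA motifs of the second. The Hk2 window held 2 hypoxia cores and no GATA motif, and the Pfkl and Pfkp windows held none of these letters. Of the isozyme genes of Hk2, 1 of the Hk1 windows also held 2 hypoxia cores and the Hk3 window held 1, and none of these windows held a GATA motif. A GATA motif was present in 29.8% of all 32851 promoter windows and in 17 of the 62 member windows (27.4%). Among these were windows of Aldoa, Gapdh, Pkm, Pklr, Eno3, Pfkfb4 and Pdk2, none of which passed 2-fold. Pfkm has more annotated windows than Pfkl and Pfkp, which have 1 each. Its first window holds 36.7% G and C, against 62.3% for Pfkl and 64.7% for Pfkp. The counts of motifs were not adjusted for either difference. The hypoxia core was present in 19.6% of all windows and in 21 of the 62 member windows (33.9%), among them those of the lactate dehydrogenase gene Ldha and of Pgk1. An E-box was present in 7.15% of all windows and in 5 member windows (8.06%). These are matches of letters and not binding sites, and which start of Pfkm was in use in these cells was not measured.

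At the hexokinase step, which traps glucose as glucose 6-phosphate, the isozyme genes parted. Hk2, the inducible isozyme of muscle and proliferating cells, had a signal of 831 with estradiol and 355 untreated on its single probe set, a log2 ratio of 1.23. Its ratio ranked as the 121st highest of the 10241 measured genes. Hk1, the widely expressed isozyme that is also the main hexokinase of red cells, read 5704 with estradiol and 4824 untreated, a log2 ratio of 0.24. Its second probe set gave 3350 with estradiol and 2821 untreated, a log2 ratio of 0.25, so both probe sets of Hk1 were slightly above 0 and within 2 SD. Hk3, a myeloid isozyme, read 259 with estradiol and 288 untreated, a log2 ratio of -0.15. The log2 ratio of Hk2 exceeded that of Hk1 by 0.98 and that of Hk3 by 1.38. Both gaps were past 0.71, which is 2 SD for the difference of 2 probe sets.

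At phosphofructokinase, the main control point of glycolysis, 1 of the 3 subunit genes passed 2-fold. Pfkm, which encodes the muscle subunit that red cells also carry, read 3648 with estradiol and 1117 untreated on its single probe set, a log2 ratio of 1.71. It ranked as the 38th highest of the 10241 measured genes. Pfkl, the liver subunit, read 2715 with estradiol and 2217 untreated, a log2 ratio of 0.29, and its other probe sets gave 0.11 and 0.09. Pfkp, the platelet-type subunit, read 2717 with estradiol and 2861 untreated, a log2 ratio of -0.07. Its second probe set gave -0.06, while its dimmest, with signals of 267 with estradiol and 178 untreated, gave 0.58. The log2 ratio of Pfkm exceeded that of Pfkl by 1.42 and that of Pfkp by 1.78. With 1 probe set each, the ratios of Pfkm and Hk2 had no second probe set to be set against.

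**Figure D2:**
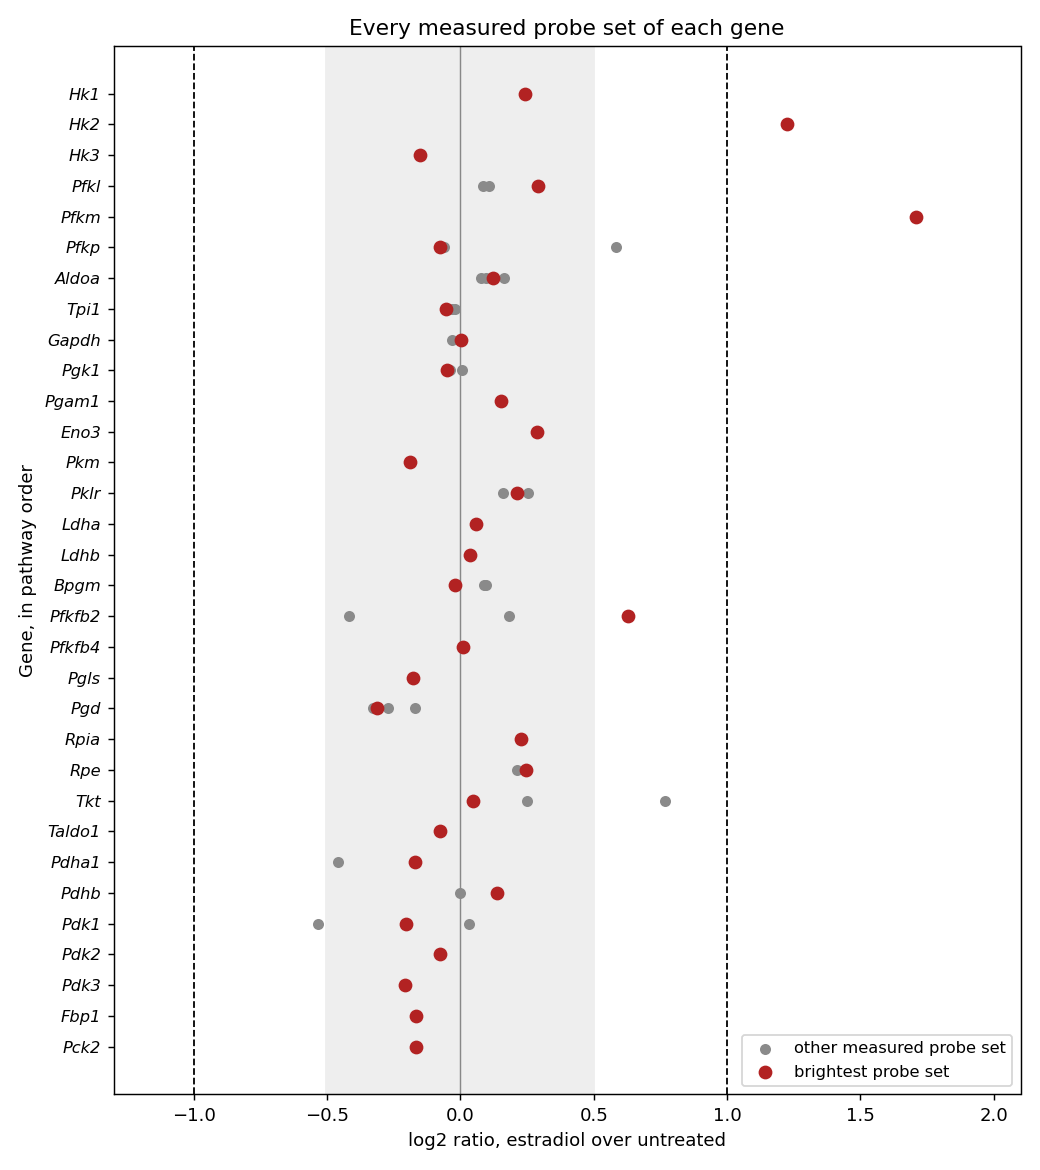
Log2 ratio of estradiol over untreated for each of the 63 measured probe sets, with the brightest probe set of a gene in red, the others in grey, a band of 2 SD between probe sets of 1 gene (0.50 to each side) and dashed lines at 2-fold. Hk2 and Pfkm lie past 2-fold, and 1 probe set each of Pfkp, Pfkfb2, Tkt and Pdk1 lies outside the band apart from its gene's other probe sets.

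The enzymes that make and break fructose 2,6-bisphosphate, an activator of phosphofructokinase, were dim. Pfkfb2, the heart-type form, read 269 with estradiol and 174 untreated, a log2 ratio of 0.63. Its other measured probe sets gave 232 with estradiol against 204 untreated (0.18) and 151 with estradiol against 202 untreated (-0.42). The 3 probe sets of Pfkfb2 thus spanned 1.05 on the log2 scale, the widest span of any member, and gave no common direction. Pfkfb4 read 381 with estradiol and 378 untreated, a log2 ratio of 0.01. Both probe sets of Pfkfb3, the form whose kinase activity far outweighs its phosphatase activity, lay below the floor, the brighter at 89.4 with estradiol and 87.6 untreated.

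The middle of glycolysis differed little. Aldoa, the main aldolase gene of blood cells, read 9196 with estradiol and 8447 untreated, and its 5 probe sets gave log2 ratios from 0.08 to 0.16. Aldoc, the brain-type aldolase gene, read 100.2 with estradiol, just past the floor, and 78.1 untreated, below it. Tpi1, which interconverts the triose phosphates, read 8708 with estradiol and 9049 untreated, with log2 ratios from -0.06 to -0.02 over 3 probe sets. Pairs of probe sets on one gene therefore differed by less than 0.10 at these bright steps. Gapdh, the enzyme that reduces NAD+ in glycolysis, was read here by 3 array control probe sets. The brightest gave 13500 with estradiol and 13491 untreated, and the 3 log2 ratios ran from -0.03 to 0.00.

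Pgk1, the first ATP-forming step, read 8835 with estradiol and 9159 untreated, with log2 ratios from -0.05 to 0.00 over 3 probe sets. Pgam1, the phosphoglycerate mutase gene of most tissues, read 5290 with estradiol and 4759 untreated, a log2 ratio of 0.15. Its muscle counterpart Pgam2 lay below the floor at 40.5 with estradiol and 43.0 untreated. Of the enolase genes, the muscle form Eno3 read 276 with estradiol and 226 untreated (0.29), and the neuronal form Eno2 lay below the floor at 11.6 with estradiol and 18.2 untreated. Bpgm, whose enzyme makes the 2,3-bisphosphoglycerate that lowers the oxygen affinity of hemoglobin, read 660 with estradiol and 669 untreated. Its 3 probe sets gave log2 ratios from -0.02 to 0.10, so the transcript of this red cell enzyme was present and differed by less than 2 SD.

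The pyruvate kinase genes, which form pyruvate and ATP, both had log2 ratios within 2 SD, on opposite sides of 0. Pklr, whose erythroid transcript encodes the red cell isozyme, read 2908 with estradiol and 2511 untreated. Its 3 probe sets gave log2 ratios of 0.21, 0.25 and 0.16, all above 0. Pkm, the isozyme gene of most other cells, read 6139 with estradiol and 6989 untreated, a log2 ratio of -0.19. The gap between Pklr and Pkm was 0.40, short of 0.71. Ldha, which turns pyruvate into lactate, read 11448 with estradiol and 11001 untreated (0.06), and Ldhb, the heart-type subunit gene, read 458 with estradiol and 447 untreated (0.03). The other 3 probe sets of Ldhb lay below the floor.

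The oxidative arm of the pentose phosphate pathway, which makes NADPH, and the sugar-rearranging arm had log2 ratios within 2 SD on the brightest probe set for all 6 measured genes, 3 above 0 and 3 below. Pgd, which carries out the second NADPH-forming step, read 3516 with estradiol and 4364 untreated, a log2 ratio of -0.31, the lowest of any measured member. Its other 3 probe sets gave -0.27, -0.33 and -0.17, so all 4 were below 0 and within 2 SD. Pgls, which opens the lactone ring, read 2871 with estradiol and 3244 untreated, a log2 ratio of -0.18. Rpia, the ribose phosphate isomerase gene, read 4516 with estradiol and 3856 untreated (0.23). Rpe, the epimerase gene, read 4487 with estradiol and 3783 untreated (0.25) and gave 0.21 on its second measured probe set. Both genes lay within 2 SD, as did Pgd and Pgls. Tkt, the transketolase gene, read 11148 with estradiol and 10801 untreated (0.05) on its brightest probe set and 9019 with estradiol and 7579 untreated (0.25) on the next. A dim Tkt probe set read 319 with estradiol and 187 untreated (0.77), so its probe sets spanned 0.72. Taldo1, the transaldolase gene, read 7043 with estradiol and 7419 untreated (-0.08). None of the 6 measured pentose phosphate genes passed 1.5-fold on the brightest probe set, against 12% of all measured genes. With 6 genes this count is not read as a property of the group. The dim Tkt probe set was 1.70-fold higher.

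Of the 5 measured genes for pyruvate dehydrogenase and its kinases, 4 had log2 ratios below 0 and 1 above, all within 2 SD on the brightest probe set. Of all 10241 measured genes 5111 lay below 0, and with 5 genes the count is not read as a direction of the group. Pdha1, the X-linked gene of the catalytic alpha subunit of pyruvate dehydrogenase, read 3435 with estradiol and 3860 untreated (log2 ratio -0.17) and gave -0.46 on its second probe set. Pdhb, the beta subunit gene, read 4142 with estradiol and 3770 untreated (0.14). The kinases that switch the complex off were below 0 in all 3 measured cases. Pdk1 read 2775 with estradiol and 3195 untreated (-0.20), but its other measured probe sets gave 0.03 and -0.53. Pdk2 read 351 with estradiol and 369 untreated (-0.07), and Pdk3 read 1456 with estradiol and 1683 untreated (-0.21). Pdk4, the fasting-induced kinase gene, lay below the floor at 28.4 with estradiol and 15.9 untreated. The gluconeogenesis genes Fbp1 (118 with estradiol, 132 untreated) and Pck2, the mitochondrial form (630 with estradiol, 708 untreated), each had a log2 ratio of -0.17.

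Across the 10 steps or groups with several measured genes, 21 pairs of genes could be compared. The gap was past 0.71 in 4 of them, all of which set Hk2 or Pfkm against the other genes of its step. The next gap was that of Pfkfb2 over Pfkfb4, 0.62. The 4 gaps thus restate the ratios of Hk2 and Pfkm, and no share of such gaps over all genes was computed. Some pairs, such as Pgls and Pgd, join different enzymes of a group and are not isozymes. Of the 16 members with several measured probe sets, 10 showed 1 direction throughout, and in 14 the values lay within 0.71 of each other, the exceptions being Pfkfb2 and Tkt. Of the measured probe sets 12, for 5 genes, end in _x_at, which marks probes that can also read related transcripts. They include every Aldoa probe set and all those of Pgd except its brightest, so these may not be separate readings. Gapdh, Pgk1 and Aldoa also have processed copies in the genome. How much of these signals came from other loci was not tested.

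**Figure D3:**
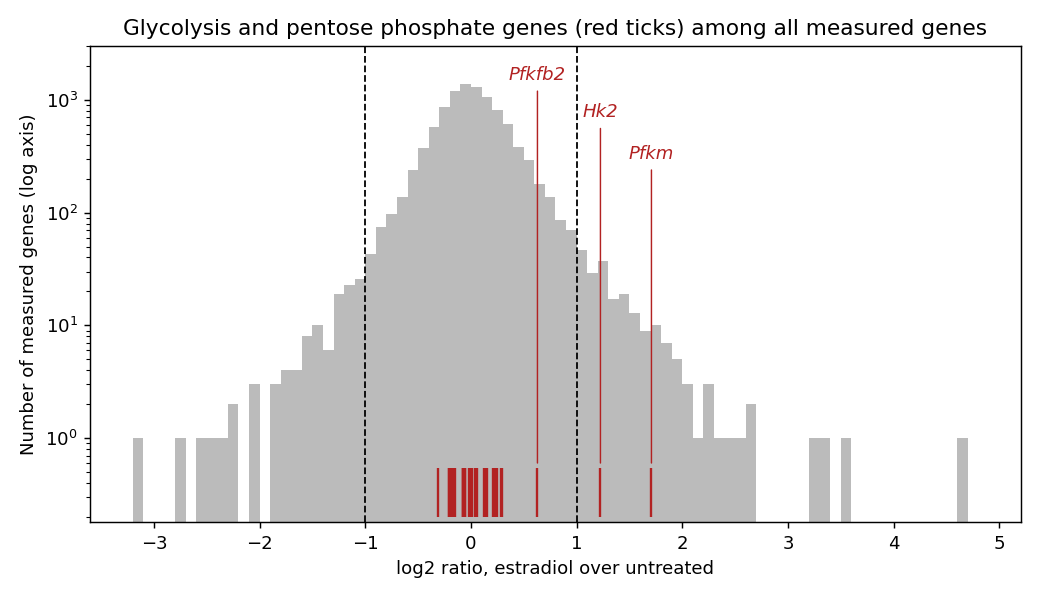
Number of measured genes (log axis) by log2 ratio of estradiol over untreated in steps of 0.1 for all 10241 measured genes, with the 32 measured members as red ticks along the base and dashed lines at 2-fold. Pfkm and Hk2 lie in the upper tail, Pfkfb2 below the 2-fold line, and the remaining members between -0.31 and 0.29.

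Around the pathway, the glucose transporter genes lay on both sides of 0. Of 6 measured genes of glucose and lactate transport, 1 was at least 2-fold lower and none 2-fold higher. Slc2a3, which encodes the neuronal-type glucose transporter GLUT3, read 384 with estradiol and 938 untreated, a log2 ratio of -1.29, with -0.97 on its second probe set. Slc2a1, the GLUT1 gene, read 1416 with estradiol and 868 untreated, with log2 ratios from 0.71 to 0.78 over 3 probe sets. Slc2a8 had a log2 ratio of 0.86. The lactate carrier gene Slc16a1 read 5267 with estradiol and 5987 untreated (-0.18). Slc2a4 read 150 with estradiol and 182 untreated (-0.28). Slc2a1 and Slc2a8 thus lay above 0 and Slc2a3 and Slc2a4 below.

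Of 8 measured genes of pyruvate entry to the mitochondrion, 4 had log2 ratios above 0 and 4 below, and 1 was at least 2-fold higher. This was Pcx, which encodes pyruvate carboxylase, at 373 with estradiol and 145 untreated, 2.57-fold. The array controls for Pcx, left out of this value, gave log2 ratios of 1.21, 0.43 and 0.35 and a bound of 0.70. The pyruvate dehydrogenase component gene Pdhx had a log2 ratio of 0.62, the pyruvate carrier gene Mpc1 0.32 and the phosphatase gene Pdp2 -0.61. Among 12 measured genes of NADPH and glutathione use, Gclc, the catalytic subunit gene of the first enzyme of glutathione synthesis, was 2.30-fold higher. It read 3349 with estradiol and 1458 untreated and gave 0.72 on its second probe set, short of 2-fold. Idh2, a mitochondrial source of NADPH, read 392 with estradiol and 784 untreated, a difference just short of 2-fold, and Gsr, glutathione reductase, had -0.58.

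Of 10 measured glycogen and hexose phosphate genes, 8 had log2 ratios below 0 and none passed 2-fold, with a median log2 ratio of -0.20 against 0.00 for all measured genes. Below 0 lay 5111 of all 10241 measured genes, and with 10 genes the count is not read as a property of the list. The glycogen phosphorylase gene Pygb had a log2 ratio of -0.91. Gys1, the glycogen synthase gene, read 75.4 with estradiol, below the floor, and 275 untreated, a bound of at least 2.89-fold lower. G6pc3, the ubiquitous glucose 6-phosphatase gene, read 79.6 with estradiol and 419 untreated, at least 4.40-fold lower. None of 7 measured genes for other forms of the listed enzymes passed 2-fold, and their log2 ratios ran from -0.63 for Tktl1 to 0.29 for Adpgk. Hif1a, which encodes the hypoxia factor, read 3539 with estradiol and 2681 untreated, with log2 ratios from 0.40 to 0.61 over 3 probe sets.

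**Figure D4:**
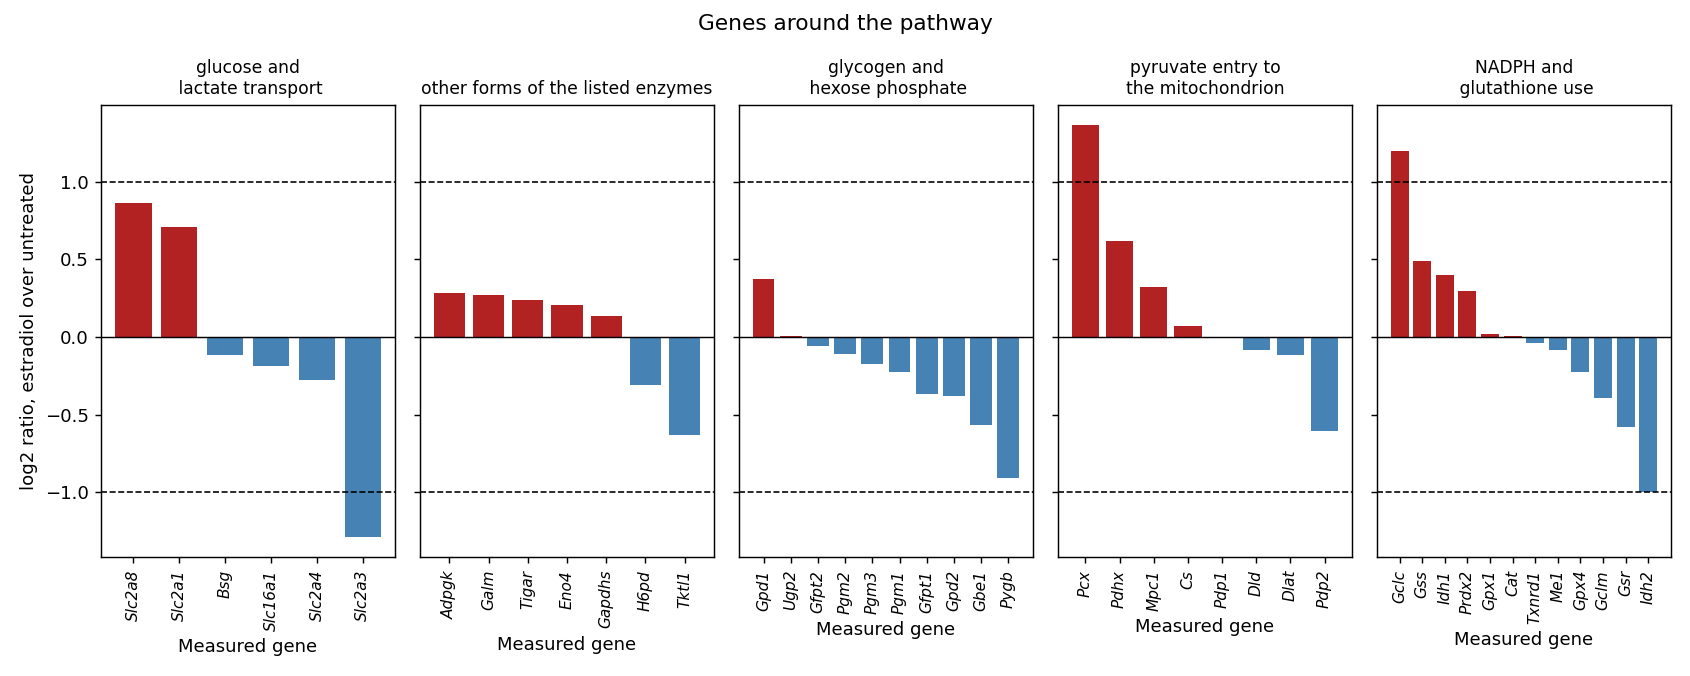
Log2 ratio of estradiol over untreated for measured genes of 5 lists around the pathway, 1 bar for each gene, red above 0 and blue below, with dashed lines at 2-fold. Pcx and Gclc pass the upper line and Slc2a3 the lower, and Idh2 ends at the lower line. Genes with only a bound, such as Gys1 and G6pc3, are not drawn.

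The calls of Pfkm and Hk2 did not depend on the settings tried for scaling, floor or choice of probe set. The log2 ratio of Pfkm ran from 1.60 to 1.74 over 10 settings and that of Hk2 from 1.11 to 1.23. Members whose probe sets disagreed had wider ranges. The log2 ratio of Pfkp ran from -0.19 to 0.58, that of Tkt from -0.07 to 0.77, that of Pdk1 from -0.53 to -0.16, and that of Pfkfb2 from 0.18 to 0.63. Aldoa, Pgam1, Pklr, Rpia and Rpe stayed above 0 and Pkm, Pgd, Pgls, Pdha1, Pdk2 and Pdk3 below 0 under each of these settings, while Ldha, Ldhb, Gapdh, Bpgm, Pfkfb4, Pfkp and Tkt changed sign.

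**Figure D5:**
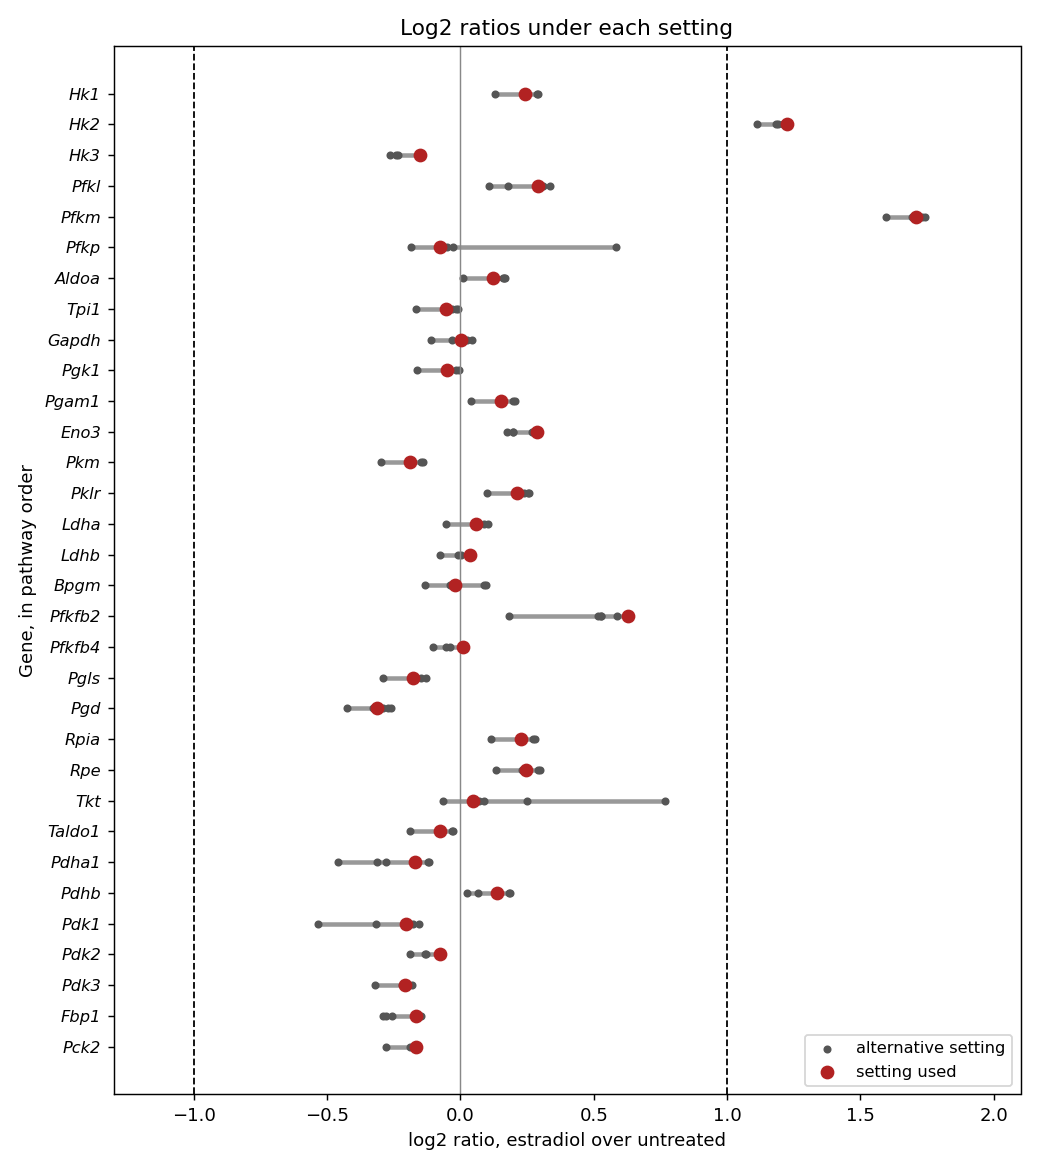
Log2 ratio of estradiol over untreated for the 32 measured members under the setting used (red) and under 9 alternatives of scaling, floor and choice of probe set (grey dots, with bars over their range), with dashed lines at 2-fold. Hk2 and Pfkm stay past 2-fold throughout, and no other member reaches it. The percentile floors and the choices of probe set could not move Hk2 or Pfkm.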

How the data were processed

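RNA of 1 untreated and 1 estradiol-treated culture was hybridised to 1 Affymetrix array each. The deposited values are linear signal intensity per probe set, made with Affymetrix GCOS per the submitters' processing notes, which name no version. The authors' values have equal trimmed means of 500.0 on both arrays over 45101 probe sets. The signals were rescaled to 1 common 2% trimmed mean over the 45037 probe sets that are not controls (factors 1.00006 for estradiol and 0.999941 for untreated). The floor was the 50th percentile of these signals, and a value below it was raised to it for a bound. Of these probe sets, 34945 had 1 gene symbol, 932 several and 9160 none in the platform annotation, and those with 1 symbol were used. Gapdh was read through its 3 control probe sets, which are annotated to it alone. The SD between probe sets of 1 gene was pooled over 12514 probe sets of 4586 genes.

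The members and gene lists were chosen with earlier results of these data known. All members are named, and of the other lists the genes past 2-fold, Slc2a1, Slc16a1 and Hif1a. Slc2a4, Slc2a8, Pdhx, Mpc1, Pdp2, Idh2, Gsr, Pygb, Tktl1, Adpgk, Gys1 and G6pc3 were added after their values were seen. The steps were tested on simulated data. Alternatives were other scalings (as deposited, common median, quantile, loess at span 0.3), a floor at the 30th percentile, at the 70th percentile or replaced by adding 16, other choices of probe set, and cut-offs at 1.5-fold or 3-fold. Figures were drawn with matplotlib 3.10.9, and values computed in Python 3.11.15 with pandas 2.3.3, numpy 2.4.6 and statsmodels 0.14.6.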

Additional observations from a re-analysis of the deposited data

Results flagged for a closer look

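Some probe sets outside the gene comparison read higher with estradiol than untreated by more than 2 SD between probe sets of 1 gene. The array holds control probe sets for the pyruvate carboxylase gene Pcx. Its 3' control (AFFX-PyruCarbMur/L09192_3_at) read 286 with estradiol and 123 untreated, a log2 ratio of 1.21. One middle control (AFFX-PyruCarbMur/L09192_MB_at) read 155 with estradiol and 23.8 untreated, which is under the floor, so its log2 ratio of 0.70 is a bound. The 5' and the other middle control had log2 ratios of 0.43 and 0.35. A probe set shared by Gapdh and its pseudogene Gapdh-ps15 read 844 with estradiol and 585 untreated, a log2 ratio of 0.53. The other probe sets shared by Gapdh and its pseudogenes gave -0.04 and -0.06.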

How the results depend on the processing

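Pfkm and Hk2 were the members past 2-fold, both higher, under all 9 alternatives of scaling, floor and probe set. Their own values could not change under the percentile floors or the choices of probe set, because each has 1 probe set, above those floors. At 3-fold 1 member was left, Pfkm, and at 1.5-fold Pfkfb2 joined them. The median log2 ratio of the members ran from -0.11 under a common median to 0.05. A common median moved the median of all genes to -0.11 as well and gave 160 genes higher and 161 lower, against 209 and 113. Counts over all genes, higher and lower, were 439 and 288 when the floor was the 30th percentile, 130 and 65 at the 70th, 679 and 512 with no floor, 728 and 497 at 1.5-fold, and 49 and 21 at 3-fold. These follow from the number of genes tested or the threshold. Of 284 values for single members under alternatives, 279 moved by less than 1 SD between probe sets or kept their call. The exceptions were Pfkfb2, Pfkp, Tkt, Pdha1 and Pdk1, each under another choice of probe set. Many of the 284 values had no room to move, so the count says little about stability. The percentile floors left each kept value as it was, and the signals as deposited were almost those used. Members with 1 measured probe set could not move under the choices of probe set. No paired analysis was possible because each group held 1 array. Genes near the floor, such as Fbp1 and Aldoc, have little signal over background, which limits what their ratios can show.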
